A study of Mus musculus with 8 samples.

Results

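The genes described here take part in cytokine signalling from the cell surface to the nucleus, most of them for the interleukin-6 family. They are the ligand gene Lif, the receptor genes Il6ra, Lifr, Osmr and Il6st, the interferon gamma receptor gene Ifngr1, the kinase genes Jak1 and Jak2, and the transcription factor gene Stat5b. They were taken by name from 2 lists of N6-methyladenosine (m6A) peaks, with earlier results of these data known. All 9 had at least 1 peak, among 6487 genes with a peak in either list. m6A is a methyl mark on adenosines inside RNA, and a peak is a stretch of transcript that an antibody against the mark enriched. The peaks come from primary mouse hepatic stellate cells, the vitamin A storing cells of the liver, of 2 kinds of mice. In one, Mettl3 was knocked out in stellate cells only (cKO, for conditional knockout), and the other were controls labelled wild type. The labels place the mice on the C57BL/6J strain and state that all cells were cultured for 7 days, during which they activate spontaneously. The sources used here state neither the age of the mice nor the promoter behind the knockout. The 8 samples were 2 precipitated and 2 input libraries of cKO cells, and 2 precipitated and 2 input libraries of control cells.

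Interleukin-6 family cytokines signal through a shared receptor chain, gp130, which is the product of Il6st. A cytokine first binds a partner receptor, and the joined receptors activate Janus kinases (JAKs) bound to their inner ends. The kinases phosphorylate STAT proteins, which then enter the nucleus and switch on target genes, among them the SOCS genes that shut the signal down again. In the liver this route drives the acute phase response, and stellate cells are known to respond to oncostatin M and interleukin-6. Mettl3 itself encodes the enzyme that places most m6A on messenger RNA.

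The authors deposited 1 peak list for each genotype, with 6709 peaks in 4300 genes for cKO cells and 8397 peaks in 4986 genes for control cells. Each peak's fold enrichment and p-value are the authors' own, and the lists hold no value per library, so no difference between the genotypes has a replicate error or a test. Read depth is unknown. The fold is taken to compare precipitated with input RNA, which the file does not spell out. It is ranked within its own list (percentile 100 being the highest) because the lists may not share a scale. Many peaks of a list had exactly the same fold, such as 147 cKO peaks at 8.09 and 146 control peaks at 8.05. Most peaks at each of these 2 folds also shared 1 listed p-value. How such steps arose was not tested. Neither list holds a Mettl3 peak, so the peaks cannot check its deletion. Of 8 stellate cell marker genes, 6 were in the cKO list and 6 in the control list. Of 5 hepatocyte markers none had one, of 6 macrophage markers 1 did in each list, of 4 bile duct markers 1 in the cKO list and none in the control list, and of 5 endothelial markers 2 in the cKO list and 3 in the control list. A peak shows that a transcript was present and not how many cells of a type were. In a culture measured as a whole, fewer cells of a type and less RNA per cell cannot be told apart. Input RNA levels were not analysed here, and their part in the presence or absence of a peak was not tested.

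The 9 genes carried 17 peaks in the cKO list and 21 in the control list. Of the 8 genes with a control peak, all 8 also had a cKO peak, where 56.1% of all control genes did. Because the members were chosen with earlier results of these data known, this count may follow from the choice, which was not tested. Stat5b was in the cKO list alone, as 23.1% of all genes with a peak were, and no member was in the control list alone, as 33.7% of all genes were. With peaks of fold at least 10 alone, 4 of the 8 were in both lists, against 45.8% of all control genes, since the cKO peaks of Lif, Il6ra, Il6st and Ifngr1 had lower folds. With p-values of at most 1e-10, 3 of 5 were in both, against 46.4%. Peak by peak, 9 of 17 cKO peaks overlapped a control peak, against 41.8% of all cKO peaks. Likewise 10 of 21 control peaks overlapped a cKO peak, against 33.7% of all control peaks. The highest control folds, 775 for Il6st and 436 for Osmr, lay near the 3′ ends of receptor genes, while the highest cKO fold, 125, lay in the coding sequence of Jak1. Positions are given in mm10 and counted from 1, and no peak of another gene in either list overlapped the outer span of a member peak.

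**Figure D1:**
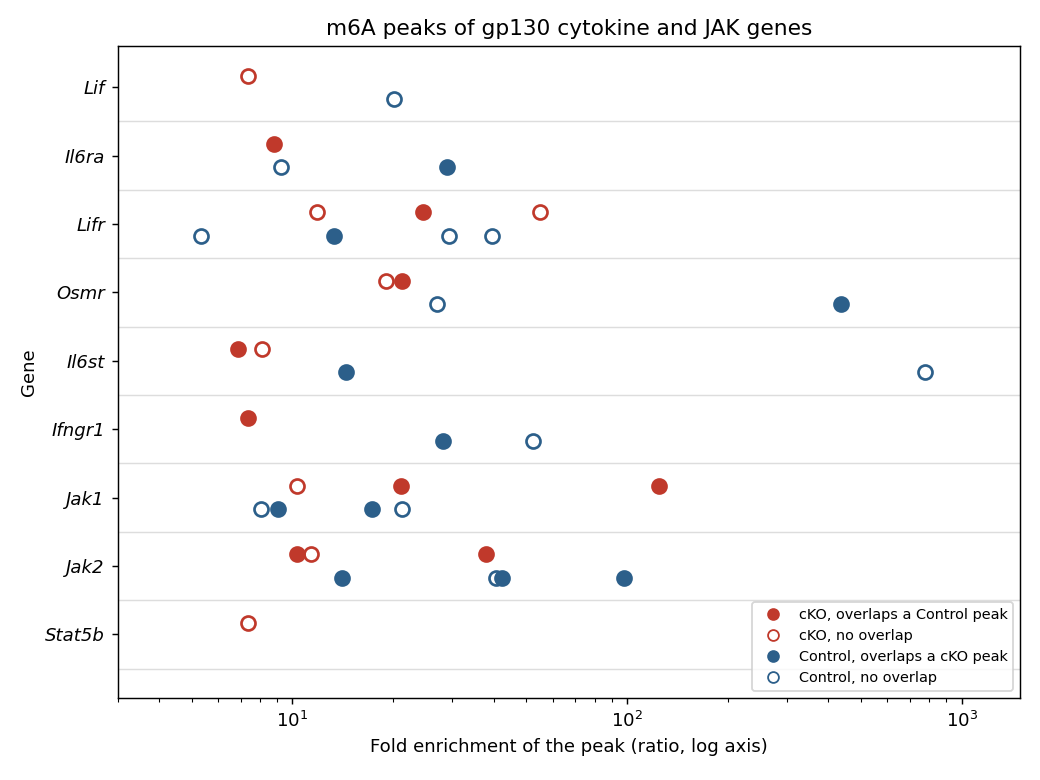
Fold enrichment (ratio, log axis) of every m6A peak of the 9 genes, with cKO peaks in red above control peaks in blue. Filled points overlap a peak of the other list by at least 1 base and open points do not. The Il6st peak of 775 and the Osmr peak of 436 stand apart among control peaks, and the Jak1 peak of 125 among cKO peaks.

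Lif encodes leukaemia inhibitory factor, the ligand among these genes, and its peaks sat in different parts of the transcript. In cKO cells its peak had a fold of 7.36 in coding sequence, on chromosome 11 from 4267113 to 4268297 on the plus strand, in blocks of 7 and 114 nucleotides (nt) across an exon junction. In control cells its peak had a fold of 20.1 in the 3′ UTR, from 4271554 to 4272154, and was 601 nt wide. The 2 peaks lay 3256 nt apart. The cKO peak was among the weakest of its list. Its p-value was 0.017, only 242 of the 6709 cKO peaks had a larger one, and the log10 of its false discovery rate was -1.2, which is a rate above 0.05. Stat5b, described further on, had a cKO peak of the same fold, p-value and false discovery rate.

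Il6ra encodes the interleukin-6 receptor alpha chain, which binds the cytokine before gp130 joins. All its peaks were in the 3′ UTR, on the minus strand of chromosome 3. The cKO list had 1 peak of fold 8.83, from 89870099 to 89870248. The control list had a peak of fold 29 from 89870159 to 89870428 and another of 9.26 from 89869650 to 89869800. The cKO peak and the stronger control peak shared 90 nt. The other control peak was not overlapped. Its fold of 9.26 stood at percentile 20.9 of the control list, and the cKO peak stood at percentile 29.2 of its own.

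Osmr encodes the oncostatin M receptor, which pairs with gp130, and it held the second highest control fold of the 9 genes at a site called in both genotypes. In cKO cells the site had a fold of 21.3, on the minus strand of chromosome 15 from 6815166 to 6815526. In control cells it had a fold of 436, from 6815166 to 6815406, and lay wholly inside the cKO peak, with 241 nt shared. These folds stood at percentile 68.6 of the cKO list and 98.2 of the control list. The authors class both as exon, with no more specific part. Beside this site, a cKO peak of fold 19.1 lay further downstream, from 6814566 to 6814806, and a control peak of fold 27 lay upstream in coding sequence, from 6815676 to 6815915. Neither was overlapped by a peak of the other list.

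Lifr encodes the leukaemia inhibitory factor receptor, another partner of gp130, and its peaks were spread over different exons in the 2 genotypes. In cKO cells, a coding peak of fold 54.8 covered 420 nt in 3 blocks, on the plus strand of chromosome 15 from 7177916 to 7181999. A second coding peak, of fold 11.8, crossed a junction from 7172968 to 7173493. No control peak was nearer than 8193 nt to either. In control cells, peaks of fold 5.32, 29.4 and 39.5 followed one another from 7190193 to 7191503, the last of them in the 3′ UTR, and no cKO peak overlapped them. The site called in both lists was further down the 3′ UTR. It had a fold of 24.6 in cKO cells, from 7193329 to 7193598, and of 13.3 in control cells, from 7193418 to 7193568. Here the cKO peak held the higher rank in its list, at percentile 72.7, against 36.1 for the control peak.

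Il6st, the gene of gp130, had the strongest and widest peak of the 9 genes in control cells, and no cKO peak touched it. In cKO cells its peaks had folds of 6.88, on the plus strand of chromosome 13 from 112506607 to 112506877, and of 8.09, from 112507866 to 112508046. The listed p-value of the first was 2e-19, and 71.9% of cKO peaks had a larger one. That of the second was 0.01, and 5.95% had a larger one. In control cells the strong peak had a fold of 775 and ran for 1621 nt through the 3′ UTR, from 112504027 to 112505647. It stood at percentile 99.4 of the control list, with a listed p-value of 0. The nearest cKO peak began 959 nt after its end. A weaker control peak of fold 14.5, from 112506277 to 112506607, ended on the base where the first cKO peak began, so the 2 count as overlapping by 1 nt and not if at least 10 nt are asked for. The authors class all 4 peaks as 3′ UTR. The RefSeq gene ends at 112506860, so the first cKO peak ran 17 nt past that end and the second lay wholly beyond it.

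Ifngr1 encodes the ligand-binding chain of the interferon gamma receptor, which signals through JAK1 and JAK2 without gp130. In cKO cells it had 1 peak of fold 7.36 in the 3′ UTR, on the plus strand of chromosome 10 from 19609630 to 19609840. In control cells the same site had a fold of 28.2, from 19609600 to 19609870, and it contained all 211 nt of the cKO peak. Control cells had a further peak of fold 52.3 in the coding sequence just upstream, from 19609300 to 19609510, without a cKO counterpart. The cKO peak stood at percentile 20.1 of its list, and the 2 control peaks at 62.5 and 77.3 of theirs.

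**Figure D2:**
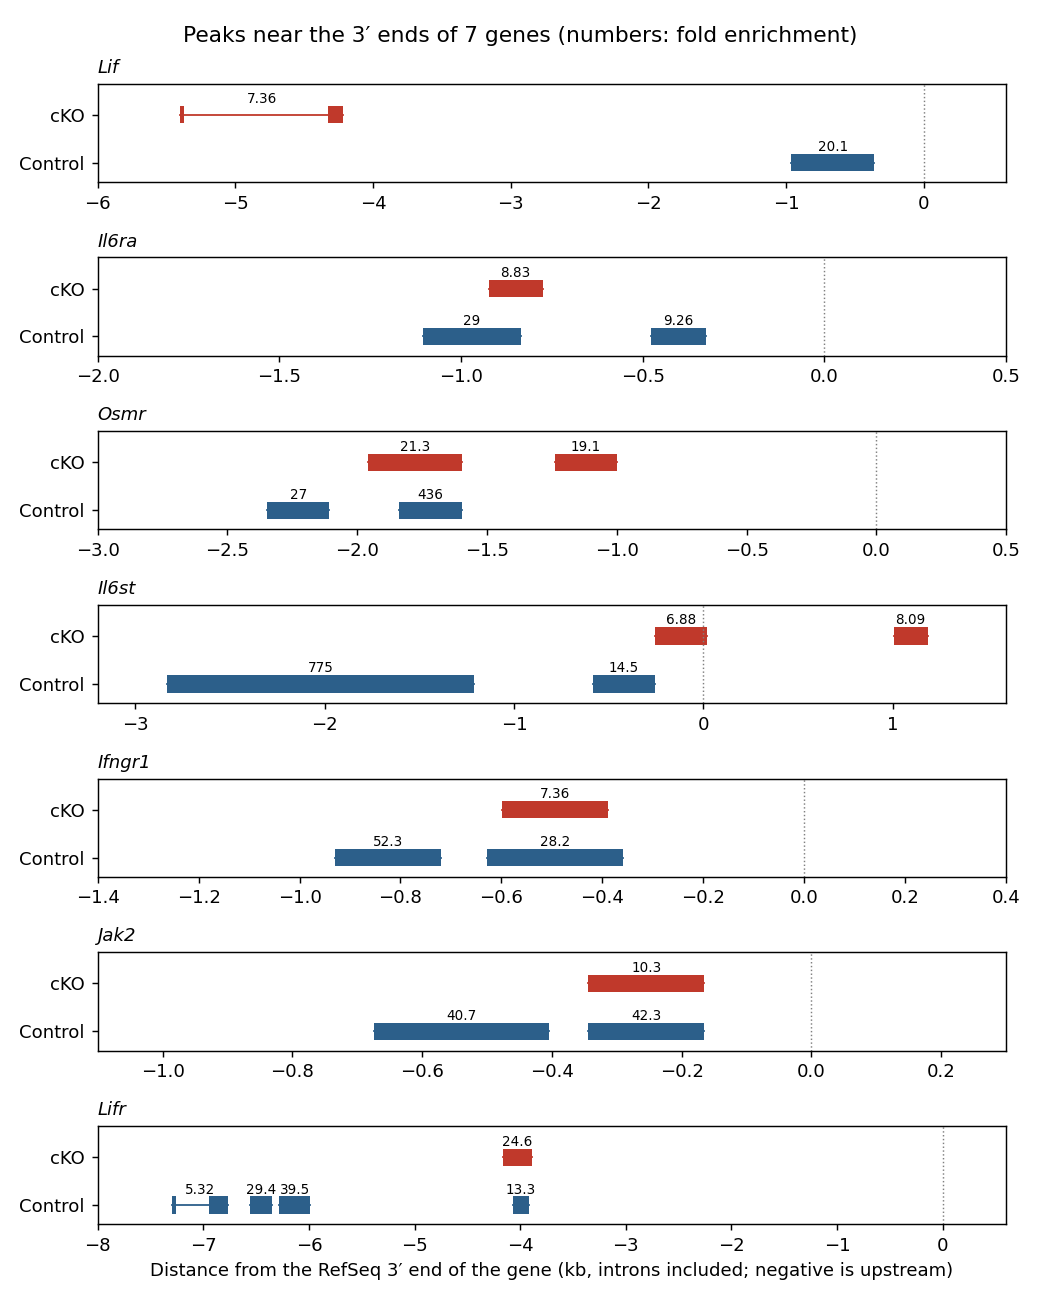
Peaks near the 3′ ends of 7 genes, by distance in kilobases from the RefSeq 3′ end (dotted line, introns included), with cKO peaks in red above control peaks in blue. Bars are exon blocks, the narrowest widened to be visible, thin lines are introns and numbers are fold enrichments. In Il6st the control peak of 775 has no cKO peak above it, and in Osmr, Ifngr1 and Jak2 peaks of both lists share a site.

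The kinase genes Jak1 and Jak2 carried more peaks than most genes, with 3 cKO and 4 control peaks each, as did Lifr. In the cKO list 12.3% of genes had at least 3, and in the control list 6.98% had at least 4. In Jak1, the coding peaks that both lists share held the higher rank within the list in cKO cells. The first had a fold of 125 in cKO cells, on the minus strand of chromosome 4 from 101177643 to 101179611, and of 9.06 in control cells, from 101177613 to 101179551. Both cross the same exon junction and share 211 nt, and they stood at percentile 96.8 of the cKO list and 20.0 of the control list. The second had a fold of 21.1 in cKO cells, from 101163671 to 101166564, and of 17.3 in control cells, from 101163671 to 101164593, again with 211 nt shared. This pair stood at percentile 68.3 of the cKO list and 46.0 of the control list. The cKO peak contained a whole exon of 144 nt and reached 22 nt into the exon before it. Upstream of these, cKO cells alone had a 5′ UTR peak of fold 10.3, from 101193785 to 101197847, the only 5′ UTR peak of the 9 genes. Towards the 3′ end, control cells alone had a coding peak of fold 21.3, from 101154584 to 101155131, and a 3′ UTR peak of 8.05, from 101153117 to 101153296. The cKO peaks of Jak1 thus reached further towards the 5′ end, and its control peaks further towards the 3′ end.

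In Jak2, one long cKO peak covered coding exons that held 2 peaks in control cells. The cKO peak had a fold of 38 and joined 690 nt of 6 exons, on the plus strand of chromosome 19 from 29300992 to 29311793. The control peaks had a fold of 14.1 over 151 nt in 3 blocks, from 29301082 to 29301907, and of 98.2 over 420 nt in 4 blocks, from 29302027 to 29311883. The cKO peak covered the first wholly and 330 nt of the second. Whole exons of 125, 118 and 114 nt were the same blocks in both lists. In the 3′ UTR, a peak of identical position in both lists, from 29312751 to 29312930, had a fold of 10.3 in cKO cells and 42.3 in control cells. A control peak of fold 40.7 just before it, from 29312421 to 29312691, had no cKO counterpart and ended 59 nt short of that site. In cKO cells alone, a coding peak of fold 11.4 crossed a junction far upstream, from 29282531 to 29283584.

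Stat5b encodes one of the STAT5 transcription factors, which growth hormone and other cytokines activate through JAK2. Its only peak was in the cKO list, with a fold of 7.36 in coding sequence, on the minus strand of chromosome 11 from 100808438 to 100822106, in blocks of 96 and 55 nt. Of the 100 cKO peaks with that fold, 64 also had its p-value of 0.017. With peaks of a false discovery rate above 0.05 left out, an alternative chosen after seeing the data, Stat5b had no peak in either list, Lif was in the control list alone, and the other 7 of 8 genes with a control peak were in both, against 55.3% of all control genes.

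**Figure D3:**
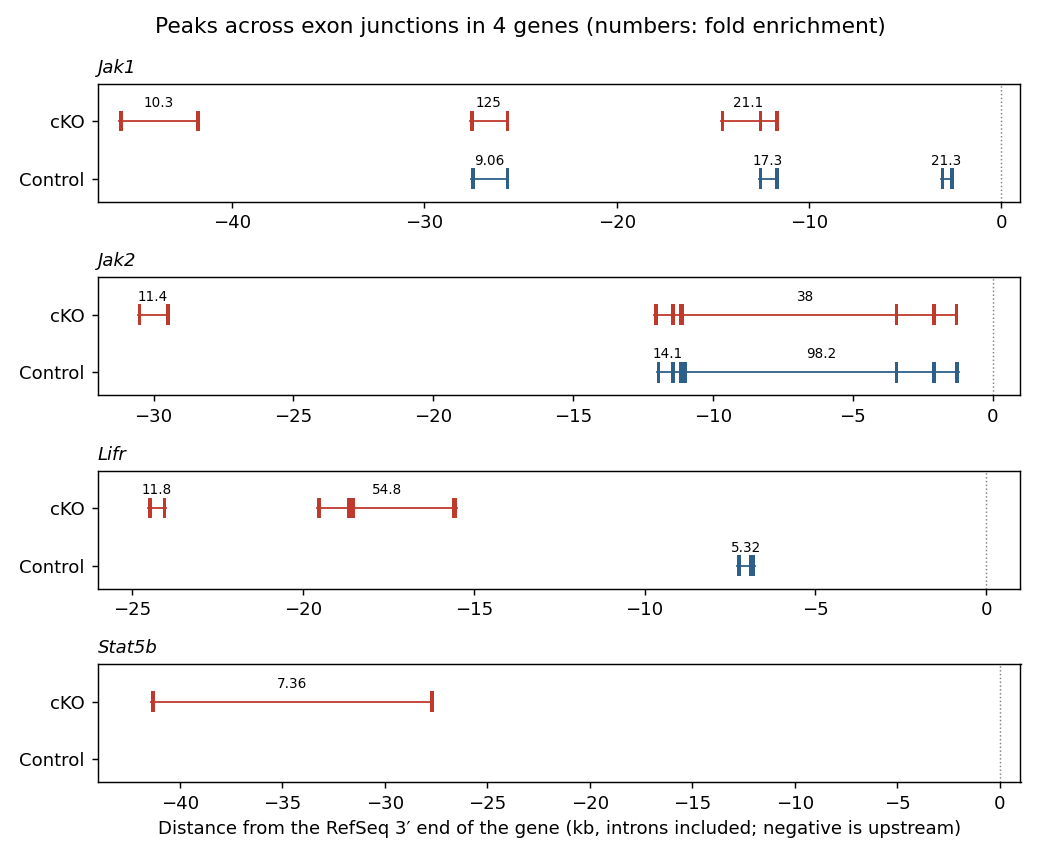
Peaks that cross exon junctions in Jak1, Jak2, Lifr and Stat5b, by distance in kilobases from the RefSeq 3′ end (introns included), with cKO peaks in red above control peaks in blue. Bars are exon blocks widened to be visible, thin lines are introns, numbers are fold enrichments, and peaks of 1 block are not drawn. The cKO peaks of Jak1, Jak2 and Lifr extend further upstream than the control peaks, and Stat5b has a cKO peak alone.

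By transcript part, the members' 3′ UTR share lay above that of the whole list in both lists, though within counting error. Coding sequence held 8 of 17 cKO peaks and 7 of 21 control peaks, against 53.5% of all cKO peaks and 53.0% of all control peaks. The 3′ UTR held 6 of 17 cKO peaks (35.3%, exact 95% interval 14.2 to 61.7) and 11 of 21 control peaks (52.4%, 29.8 to 74.3), against 23.9% in the whole cKO list and 31.7% in the whole control list. These intervals are Clopper-Pearson, cover counting error only, and include the share of the whole list in each case. All 8 cKO coding peaks crossed at least 1 exon junction, against 69.0% of all cKO coding peaks, and so did 5 of 7 control coding peaks, against 40.9% of all control coding peaks. None of the 6 cKO and 11 control peaks in 3′ UTRs did, against 8.41% of all cKO and 9.61% of all control 3′ UTR peaks.

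**Figure D4:**
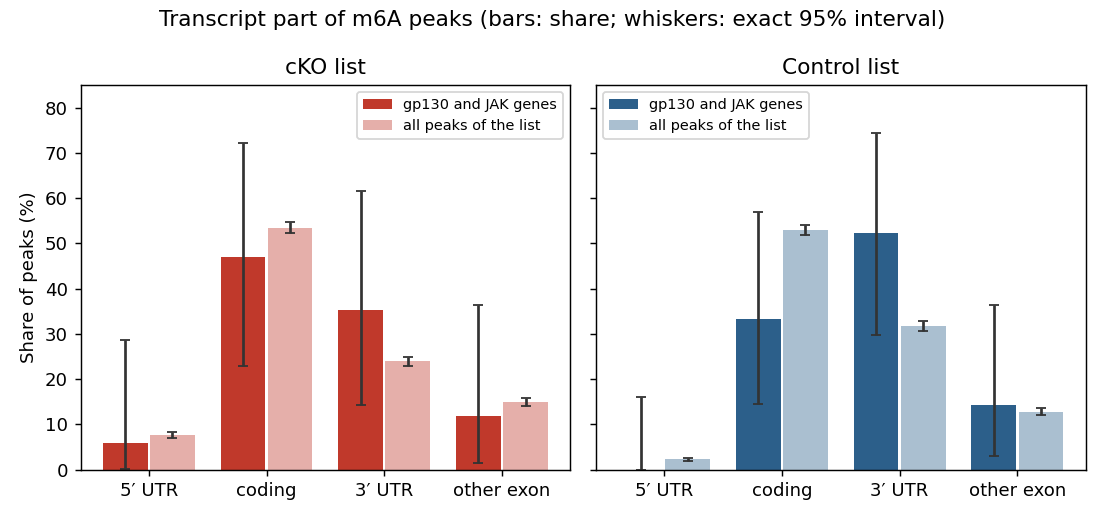
Share of peaks (%) in each transcript part for the 9 genes (full colour) and for the whole list (pale), in the cKO list at left and the control list at right. Whiskers are exact 95% intervals. The 3′ UTR share of the 9 genes is 35.3% in the cKO list and 52.4% in the control list, with wide intervals that include the share of the whole list.

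Along the genes, cKO peaks lay less close to the 3′ end than control peaks. The last 10% of the RefSeq gene span, introns included, held 7 of 17 cKO peaks and 18 of 21 control peaks of the members. Over all genes placed in the same way, it held 31.9% of cKO peaks and 41.3% of control peaks. The median place was at 88.9% of the span for cKO and 96.4% for control peaks of the members, and over all such peaks at 75.0% for cKO and 85.3% for control. Because introns are included, places along the span are not places along the messenger RNA. Each peak was placed by 1 point, which for the members was the middle of its largest exon block. By that point, the 9 cKO peaks before the last 10% were the coding and 5′ UTR peaks of Jak1, Jak2, Lifr, Lif and Stat5b. The long Jak2 coding peak of cKO cells was among them, at 81.9%, though it ended 1302 nt before the gene end. The control peak that shares 330 nt with it was placed at 97.9%. Past the gene end lay 1 cKO peak, of Il6st. The 3 control peaks before the last 10% were in Jak1 and Jak2.

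Site by site, 9 of 17 cKO peaks were overlapped by a control peak (52.9%, 27.8 to 77.0), where 41.8% of all cKO peaks were. In the other direction, 10 of 21 control peaks were overlapped by a cKO peak (47.6%, 25.7 to 70.2), where 33.7% of all control peaks were. Both intervals include the share of the whole list. With an overlap of at least 10 bp, which leaves out the 1-nt pair of Il6st, 8 of 17 cKO peaks were overlapped, against 41.1% of all cKO peaks. Under that rule 9 of 21 control peaks were, against 33.1% of all control peaks. Among peaks with p-values of at most 1e-10 in both lists, 1 of 6 cKO peaks was overlapped, against 44.2% of all such cKO peaks, and 1 of 7 control peaks, against 33.6%, which are the long coding peaks of Jak2. Of the 8 genes in both lists, 7 had an overlapping peak, Il6st by 1 nt only, against 75.3% of all such genes, and Lif did not. The highest-fold peaks of the 2 lists overlapped in Il6ra, Osmr and Jak2, thus in 3 of 8 genes, against 47.9% of all such genes. Of the 8 genes, 5 had fewer cKO than control peaks, against 30% of all such genes, and the other 3, Lif, Osmr and Il6st, had equal numbers. A gene in both lists with 1 control peak cannot have fewer cKO peaks. All of the 8 but Lif had at least 2 control peaks, as 38.1% of all control genes did, so the 30% is not a like comparison. The peaks of the members covered 4182 nt of exon in cKO cells and 6615 nt in control cells, of which the strong control peak of Il6st made up 1621 nt.

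Among the 10 overlapping pairs of peaks, rank within the list went in different directions by transcript part, a split made after the values were seen. Of the 5 pairs with a control peak in the 3′ UTR, the cKO peak held the higher percentile in 1, that of Lifr, against 43.3% of such pairs over all genes. In the Il6ra, Il6st, Ifngr1 and Jak2 3′ UTR pairs the control peak held the higher one, as it did in Osmr. The Il6st pair shares 1 nt only. Of the 4 pairs in coding sequence, the cKO peak held the higher percentile in 3, namely both Jak1 pairs and 1 of 2 Jak2 pairs, against 52.7% of such pairs over all genes. Over all parts it was 4 of 10 for the members and 51.3% for all pairs. The 2 Jak2 coding pairs share the same cKO peak. The median fold of the members' peaks was 11.4 in the cKO list, at a median percentile of 42.3, and 27 in the control list, at 61.2.

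**Figure D5:**
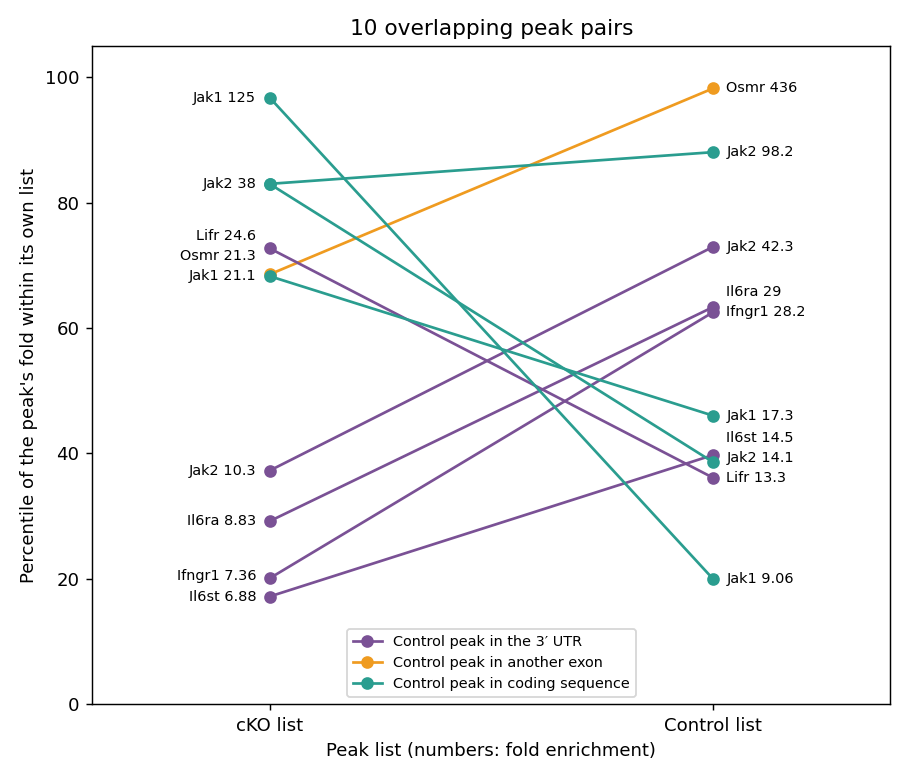
Percentile of the fold within its own list for the 10 overlapping pairs of peaks, the cKO list at left and the control list at right, with the fold beside each point. Colours give the part of the control peak. The Jak1 pair, 125 in cKO and 9.06 in control, and the Osmr pair, 21.3 in cKO and 436 in control, run in opposite directions.

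A wider list held 61 other genes of gp130 and JAK-STAT signalling. Of these, 20 had a peak, all of them in the control list, and 8 also in the cKO list (40.0%, 19.1 to 63.9), against 56.1% of all control genes, which lies inside the interval. None was in the cKO list alone. The remaining 41 genes had no peak, including Stat3, Socs3, Jak3 and Tyk2. Stat3 is the main STAT of gp130 and Socs3 its feedback inhibitor.

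Among signal inhibitors, Socs5 had best folds of 22.1 in cKO cells and 168 in control cells, and Socs2 had 13.2 in cKO cells and 26.2 in control cells, in peaks at separate sites. Socs6 (51.7) and Socs4 (14.5) were in the control list alone, as were Pias4 (18.7) and Pias2 (16.5), which encode SUMO ligases that bind STATs. The phosphatase gene Ptpn11, whose product SHP2 binds phosphorylated gp130, had best folds of 65.1 in cKO cells and 98.6 in control cells. Ptpn2 had 11 in cKO cells and 6.84 in control cells, the latter with a listed p-value of 0.026. Ptpn1 (26.6) was in the control list alone.

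Further receptor genes called in control cells numbered 7, and 3 of these were called in cKO cells too, against 56.1% of all control genes. The growth hormone receptor gene Ghr had a coding peak of fold 37.5 in cKO cells and 255 in control cells. Il13ra1, a receptor chain for interleukins 4 and 13, had best folds of 76.1 in the cKO 5′ UTR and 6.44 in the control 3′ UTR. This control peak had a listed p-value of 0.034 and was overlapped by a cKO peak. Of the 2 cKO peaks of Il13ra1, 1 was overlapped by a control peak. Csf2ra had best folds of 12.9 in cKO cells and 12.1 in control cells. Il4ra (74.5), Ifngr2 (25.8), Ifnar1 (14.5) and Ifnar2 (11.7) were in the control list alone, so the partner chain of Ifngr1 had no cKO peak. The ligand gene Il6 (17.7), the adaptor gene Sh2b1 (47.9) and Stat6 (15.7) were also in the control list alone.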

How the data were processed

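Per the labels' protocols, 100 µg of total RNA was fragmented to 100 to 200 nt and precipitated with an antibody against m6A, and precipitated and input RNA were read as 150-bp paired ends. HISAT2, HOMER and mm10 appear in the submitters' processing notes with no role stated. Which program called the peaks, and how replicates were combined, is not given in the sources used here. Per the file headers, each deposited peak has exon blocks, a transcript part, a fold enrichment (a ratio) and a p-value. The log10 columns of the deposited lists were handled as a score because they run to very large negative values.

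Starts were taken as counted from 0 because each block's size equals end minus start. Peaks counted as overlapping if they had 1 bp or more of exon in common, strand included. Percentiles are mid-ranks of the fold within a list. Genes were joined by symbol, and all 9 members were found in the RefSeq table of GRCm38, which is the mm10 build and gave the gene ends. Intervals are exact Clopper-Pearson at 95%. The overlap code was tested on simulated data. Computation used Python 3.11.15, pandas 2.3.3, numpy 2.4.6, scipy 1.17.1 and matplotlib 3.10.9.

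The members, the wider list and the rules were chosen with earlier results of these data known. All members are named, and genes of the wider list where they had a peak, of which not all are reported here. Stat3, Socs3, Jak3 and Tyk2 were named after it was seen that they had none. The alternatives changed the overlap, the fold, the p-value and the join of genes. The search for m6A consensus motifs in the peaks was not run because no genome sequence was used here.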

Additional observations from a re-analysis of the deposited data

How the results depend on the processing

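The number of members in both lists was 8. It was also 8 with folds of at least 5 and with genes joined by Ensembl identifier, and 7 where an overlapping peak was required or the false discovery rate had to be at most 0.05. It was 4 with folds of at least 10 (Lif, Il6ra, Il6st and Ifngr1 then in the control list alone, 0 in the cKO list alone). With p of at most 1e-10 it was 3 (Il6st, Lifr and Jak2), with Jak1 in the cKO list alone and 2, Osmr and Ifngr1, in the control list alone. Over all control genes the share also in the cKO list was 45.8% and 46.4% under these 2 rules. With the false discovery rate limited, 0 members were in the cKO list alone and 1 in the control list alone. In the wider list, 2 genes, Ptpn2 and Il13ra1, were in the cKO list alone with folds of at least 10 and with the false discovery rate limited. With p of at most 1e-10, 2 of its genes were in both lists, 2 in the cKO list alone and 5 in the control list alone.

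Of the members' 21 control peaks, 6 instead of 10 were overlapped where the overlap had to cover 50% of both peaks, against 22.0% of all control peaks. Among peaks of fold at least 10 in both lists, 5 of 11 cKO peaks and 6 of 17 control peaks of the members were overlapped, against 38.9% of all cKO and 26.2% of all control peaks that passed that limit. Among peaks with p of at most 1e-10 in both lists it was 1 of 6 cKO peaks and 1 of 7 control peaks, against 44.2% of the cKO and 33.6% of the control peaks that passed. The cKO peaks in the 3′ UTR numbered 2 with folds of at least 10. Of 52 recomputed values, the other 34 kept within 1.5 times of the value reported. The false discovery rate limit, the change of percentile to peaks of the same part and the limits applied to transcript parts were chosen after seeing the data. No paired analysis was possible because each genotype has 1 list with no value per replicate, so no library was left out. The motif alternative was not run.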
